A study of Mus musculus with 22 samples.

Results

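Neutrophil granule and surface genes were followed through the RNA of a transplanted murine B-cell leukemia. The 10 genes S100a8, S100a9, Ly6g, Mpo, Elane, Camp, Ngp, Ltf, Retnlg and Cxcr2 were chosen by name, and each gene's value was the sum of its transcripts in the deposited table, which held 17023 genes of the GENCODE mouse annotation. All 10 were present. They were read in 3 stages of neutrophil development, the early granule genes (Mpo, Elane), the late granule genes (Ngp, Camp, Ltf) and the mature genes (S100a8, S100a9, Retnlg, Cxcr2), with the surface marker Ly6g apart.

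The 22 samples came from TCL1-355 TKO cells, a leukemia line derived from the Eμ-TCL1 transgenic model of chronic lymphocytic leukemia, in which a B-cell promoter and enhancer drive the TCL1 oncogene. All samples share that transgene and the lesions that the line already carries, among them loss of Cdkn2a and Cdkn2b. In NFKBIE-ko cells the gene of the NF-κB inhibitor IκBε had been targeted with Cas9 ribonucleoprotein and 1 cr-RNA, and NFKBIE-wt cells are the mock control. Each genotype was propagated for 21 days in a C57BL/6 mouse and then injected intraperitoneally into 5 C57BL/6 recipients, with an age of 2 to 3 months given for transplanted mice. Material was taken 10 days later from the spleen (4 samples per genotype) and the peritoneal cavity (PC, 4 samples per genotype) and was not purified, so that host cells remained in it. A further 3 samples per genotype were leukemia cells isolated from spleens of different mice and cultured for 2 weeks. Nothing says which spleen and PC samples share a mouse, and the transplant samples of a genotype all descend from the same propagation mouse. The p-values thus measure the spread between these samples only. In the transplant samples an effect of the genotype cannot be told apart from an effect of that mouse.

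Neutrophils fill their granules in sequence. Promyelocytes make the primary (azurophilic) granule enzymes, among them myeloperoxidase (Mpo) and neutrophil elastase (Elane). Myelocytes and metamyelocytes then make the secondary granule proteins lactoferrin (Ltf), the cathelicidin precursor (Camp) and its relative neutrophilic granule protein (Ngp), under the control of C/EBP factors. Mature cells carry the calcium-binding pair S100a8 and S100a9 (calprotectin), the resistin-like secreted protein Retnlg and Cxcr2, the receptor for the chemokines that draw neutrophils out of the marrow and into inflamed tissue. Ly6g is the surface protein by which murine neutrophils are usually identified.

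The total count per sample lay between 24036763 and 26581304. B-cell markers were high throughout, with the summed level of Cd79a, Cd79b, Ms4a1, Pax5, Ighm and Cd5 between 6309 CPM (counts scaled to library size with edgeR's TMM factors) in an NFKBIE-ko spleen and 11665 CPM in an NFKBIE-wt culture. Counts of the targeted gene Nfkbie were 1664 to 2132 in NFKBIE-wt and 1190 to 1708 in NFKBIE-ko samples of the PC, with a log2 fold change of -0.56 (SE 0.12, adjusted p of 0.0038 from edgeR), and in the spleen 1752, 1809, 1970 and 3199 in NFKBIE-wt, the last in a library whose label is doubted, and 1376, 2742, 2941 and 3142 in NFKBIE-ko. Without that library 3 of 4 NFKBIE-ko spleens lay above every NFKBIE-wt spleen. An edit of this kind need not change the amount of mRNA, so that these counts do not check the genotype. A pair of libraries went against their labels in the host-cell genes. Replicate 4 of the libraries labelled NFKBIE-wt spleen, called the doubted spleen library from here on, held 0 counts of Ngp, Camp, S100a8, S100a9, Retnlg, Cxcr2, Elane, Hbb-bs and C1qa, which the other spleens all held, and its log2 expression correlated over 10081 genes at 0.917 to 0.984 with the NFKBIE-wt cultures, at 0.972 to 0.979 with the NFKBIE-ko cultures and at 0.899 to 0.932 with the other NFKBIE-wt spleens. Replicate 3 of those labelled NFKBIE-wt in vitro, the doubted culture library, held 1644 counts of Ngp, 2028 of S100a9 and 10778 of the globin gene Hbb-bs, and correlated at 0.895 to 0.920 with the other NFKBIE-wt cultures and at up to 0.985 with an NFKBIE-wt spleen. The lowest value of the doubted spleen library with the NFKBIE-wt cultures, 0.917, was its correlation with the doubted culture library. Whether these libraries were exchanged was not tested. The labels were kept, and the tests of the 10 genes are given with and without these libraries.

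In the spleen and the PC the neutrophil genes followed a wide but ordered range of levels. Levels between genes were compared as CPM per kilobase of transcript, leaving out the doubted spleen library. In NFKBIE-wt spleens S100a9 stood highest (142 ± 107, SD, n = 3), followed by S100a8 (117 ± 104), Ngp (37.4 ± 23.4), Retnlg (28.1 ± 24.5), Camp (8.87 ± 9.29), Ltf (6.96 ± 5.92), Cxcr2 (0.787 ± 0.467), Mpo (0.516 ± 0.143), Elane (0.495 ± 0.276) and Ly6g (0.269 ± 0.324). Of the neighbours in that order only Ltf and Cxcr2 had ranges that did not meet, although S100a9 lay above S100a8, S100a8 above Ngp and Ngp above Retnlg in each of the 3 libraries. NFKBIE-ko spleens and NFKBIE-wt PC had the order S100a9, S100a8, Retnlg, Ngp and Ltf in their means, with Retnlg above Ngp in 3 of 4 and 4 of 4 libraries. The NFKBIE-ko PC stood apart in its order, with S100a8 (14.3 ± 4.29, n = 4) and S100a9 (12.7 ± 8.36) followed by Ltf (6.96 ± 1.89), and Retnlg (2.45 ± 1.70), Ngp (1.22 ± 1.23) and Camp (0.381 ± 0.446) under it in every library.

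**Figure D1:**
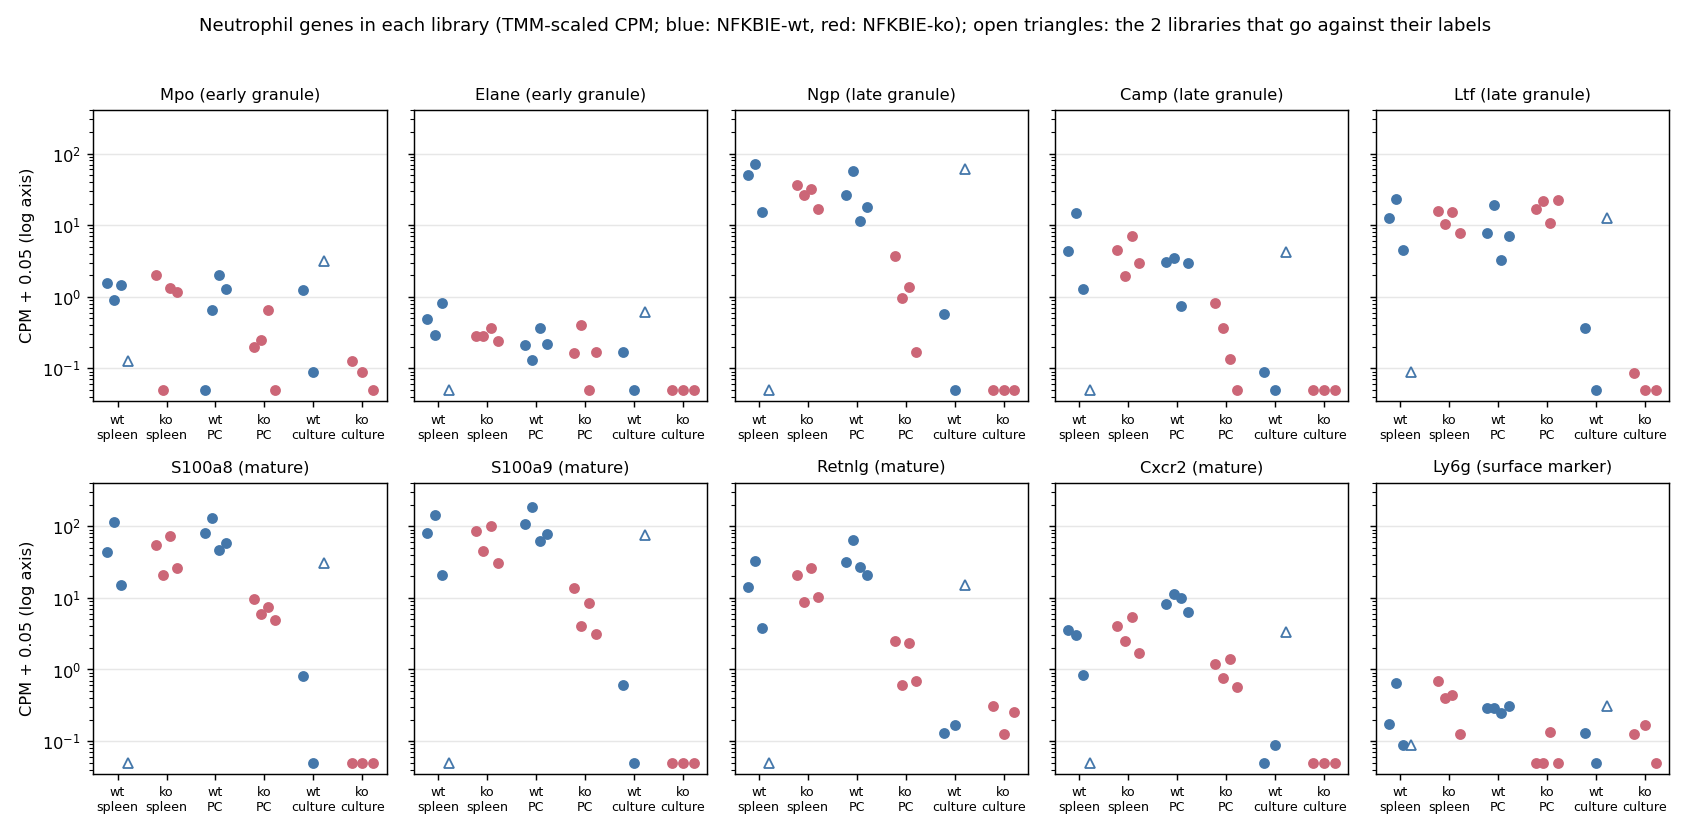
Each panel shows 1 gene, with the TMM-scaled CPM of every library plus 0.05 on a log axis for the 6 groups (blue NFKBIE-wt, red NFKBIE-ko). Open triangles are the 2 doubted libraries. Ngp, S100a8, S100a9, Retnlg and Cxcr2 of the NFKBIE-ko PC lie below every NFKBIE-wt PC library, while Ltf overlaps between the genotypes.

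The early granule genes were low in every group, with Elane close to the limit of detection. Mpo was represented in the table by 1 of its 6 annotated transcripts, the protein-coding ENSMUST00000121303 with 14 exons (GRCm39, chr11:87685033-87695239, plus strand), which is not the canonical one. Elane was represented by its canonical transcript (chr10:79722081-79724051, plus strand, 5 exons). Elane never exceeded 20 counts in any library and did not pass the filter on low counts in any main comparison. Mpo reached 51.8 counts in a spleen library of NFKBIE-ko cells, 50.9 in the PC of NFKBIE-wt cells and 82 in the doubted culture library, with 0 counts in the other extreme of the same sites (NFKBIE-ko spleen replicate 2 and NFKBIE-wt PC replicate 1).

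The late granule genes lie on chromosome 9, Camp on the minus strand (chr9:109676442-109678685, 4 exons), Ngp on the plus strand (chr9:110248815-110252086, 4 exons) and Ltf on the plus strand (chr9:110848339-110871835, 17 exons), all given for the main transcript on GRCm39. Their upstream sequences are shown because Ngp and Camp fell in the NFKBIE-ko PC and Ltf did not. The sequences are those of RefSeq's mouse promoter table (built on GRCm38.p6), each matched once and exactly to GRCm39, cut to end before the start of the transcript in the count table, and written on the gene's strand from 5′ to 3′. Capitals mark matches to the C/EBP motif TTNCNNAA or the PU.1 motif GAGGAA on either strand.
Ngp (chr9:110248626-110248814): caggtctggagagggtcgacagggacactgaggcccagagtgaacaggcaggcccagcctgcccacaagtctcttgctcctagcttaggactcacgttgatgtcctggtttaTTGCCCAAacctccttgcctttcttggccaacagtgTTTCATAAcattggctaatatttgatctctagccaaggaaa
Camp (chr9:109678686-109678774): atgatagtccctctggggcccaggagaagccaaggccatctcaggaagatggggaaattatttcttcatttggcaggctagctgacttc
Ltf (chr9:110848110-110848338): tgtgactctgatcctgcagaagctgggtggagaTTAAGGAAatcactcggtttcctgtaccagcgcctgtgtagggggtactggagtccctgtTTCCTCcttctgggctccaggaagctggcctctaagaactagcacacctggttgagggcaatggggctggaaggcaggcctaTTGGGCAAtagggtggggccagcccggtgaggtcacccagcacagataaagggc

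Over the whole 300-base windows of the table (250 bases before to 50 after the RefSeq start), the Ngp promoter held 3 C/EBP matches and no PU.1 match, the Ltf promoter 2 C/EBP matches and 1 PU.1 match, and the Camp promoter neither. Elane held 1 PU.1 match and Mpo 2, with no C/EBP match in either. Among all 32851 promoters of the table, 40.7% held the C/EBP letters and 28.3% the PU.1 letters, so that both are common in windows of this length. Of the 3, Ltf alone held a PU.1 match. Of the mature genes, all called lower in the NFKBIE-ko PC, S100a8 and Cxcr2 held 2 PU.1 matches each. S100a9 and Retnlg held no PU.1 match. A match describes letters, not a site that a factor binds.

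The first question was whether the genotype of the leukemia went with the neutrophil genes of the PC. Late granule and mature genes were lower in the NFKBIE-ko PC, with Ltf as the exception, and the early gene Mpo was not called. A gene was called where edgeR's quasi-likelihood test gave a Benjamini-Hochberg adjusted p below 0.05 over all genes tested and a log2 fold change beyond 1. Of the 10 genes, 8 passed the filter on low counts, 6 of these were called lower in the NFKBIE-ko PC and 0 higher, against 3.5% and 9.97% of all 12642 genes tested. The median log2 fold change of the 8 was -3.37, and that of all genes -0.0078. In these bulk samples fewer neutrophils and less RNA per neutrophil cannot be told apart.

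Among the late granule genes, Ngp measured 26.6, 57.0, 11.4 and 17.7 CPM in the NFKBIE-wt PC replicates 1 to 4. In the NFKBIE-ko PC it measured 3.65, 0.913, 1.32 and 0.119 CPM, the last from 3 counts. Every NFKBIE-ko library lay below every NFKBIE-wt library, and the log2 fold change was -4.22 (SE 0.84, adjusted p of 0.0061 from edgeR). Camp, the precursor of the antimicrobial cathelicidin peptide, measured 3.03, 3.38, 0.702 and 2.87 CPM in the NFKBIE-wt PC and 0.760, 0.317, 0.085 and 0 CPM in the NFKBIE-ko PC. The groups of Camp met, since NFKBIE-wt replicate 3 lay just under NFKBIE-ko replicate 1, and the log2 fold change was -3.07 (SE 0.79, adjusted p of 0.012 from edgeR). As the transcript with the highest level, tested among all transcripts, Camp was not called (log2 fold change -3.04, adjusted p of 0.095 from edgeR).

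Ltf, which encodes the iron-binding lactoferrin of the same granules, went the other way in its mean. It measured 7.60, 18.8, 3.20 and 7.02 CPM in the NFKBIE-wt PC and 16.6, 21.4, 10.5 and 22.1 CPM in the NFKBIE-ko PC. The groups overlapped through NFKBIE-wt replicate 2, and Ltf was not called (log2 fold change 0.94, SE 0.50, adjusted p of 0.17 from edgeR). Without that library it was called higher (log2 fold change 1.55, adjusted p of 0.0079 from edgeR). Ltf had 4 transcripts in the table, of which the canonical one held 94.5% of its counts.

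The mature genes showed the clearest separation in the PC. S100a8 (chr3:90576285-90577348, plus strand, 3 exons) measured 79.8, 129, 45.9 and 58.2 CPM in the NFKBIE-wt PC. In the NFKBIE-ko PC it measured 9.72, 5.95, 7.52 and 4.87 CPM, all below the lowest NFKBIE-wt library, with a log2 fold change of -3.48 (SE 0.38, adjusted p of 0.00022 from edgeR). Its partner S100a9 (chr3:90599932-90603071, minus strand, 3 exons) measured 107, 187, 61.8 and 78.4 CPM against 13.5, 4.05, 8.45 and 3.05 CPM, again without overlap (log2 fold change -3.91, SE 0.58, adjusted p of 0.0016 from edgeR).

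Retnlg (chr16:48692977-48694862, plus strand, 4 exons) measured 31.1, 65.0, 26.6 and 20.7 CPM in the NFKBIE-wt PC and 2.43, 0.556, 2.29 and 0.633 CPM in the NFKBIE-ko PC. Its log2 fold change of -4.60 (SE 0.59, adjusted p of 0.00057 from edgeR) was the lowest of the 8. The chemokine receptor Cxcr2 (chr1:74193150-74200405, plus strand, 2 exons) measured 8.17, 11.1, 9.79 and 6.25 CPM in the NFKBIE-wt PC. The NFKBIE-ko PC gave 1.14, 0.714, 1.36 and 0.514 CPM, a log2 fold change of -3.25 with the smallest error and the smallest p of the 8 (SE 0.30, adjusted p of 1.58e-05 from edgeR). Both genes separated the genotypes without overlap, as did 5 of the 8 in this direction, against 19.4% of all genes tested.

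Ly6g and the early granule genes were too low for the main test or not called. Ly6g (chr15:75027089-75030982, plus strand, 4 exons) had 6, 6, 5 and 6 counts in the NFKBIE-wt PC and 0, 0, 2 and 0 counts in the NFKBIE-ko PC, where 3 counts are the limit that a count of 0 allows. It did not pass the filter, and without a filter it was called lower (log2 fold change -3.25, adjusted p of 0.018 from edgeR), a fitted value that depends on the prior count. Mpo measured 0, 0.596, 1.99 and 1.24 CPM in the NFKBIE-wt PC and 0.152, 0.198, 0.595 and 0 CPM in the NFKBIE-ko PC. With overlapping groups it was not called (log2 fold change -2.03, SE 1.05, adjusted p of 0.15 from edgeR), apart from the fit without NFKBIE-wt replicate 1, the library at 0 (-2.44, adjusted p of 0.032). Elane had 4, 2, 8 and 4 counts against 3, 9, 0 and 3 counts, which differ by less than the counts vary within a genotype. The 6 calls were kept when each PC library was left out in turn. In a fit of all 22 samples, which gives every site the same spread, only Retnlg and Cxcr2 were called, and Ngp (-4.22, adjusted p of 0.059), S100a8 (-3.48, adjusted p of 0.062), S100a9 (-3.90, adjusted p of 0.062) and Camp (-3.07, adjusted p of 0.15) were not.

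**Figure D2:**
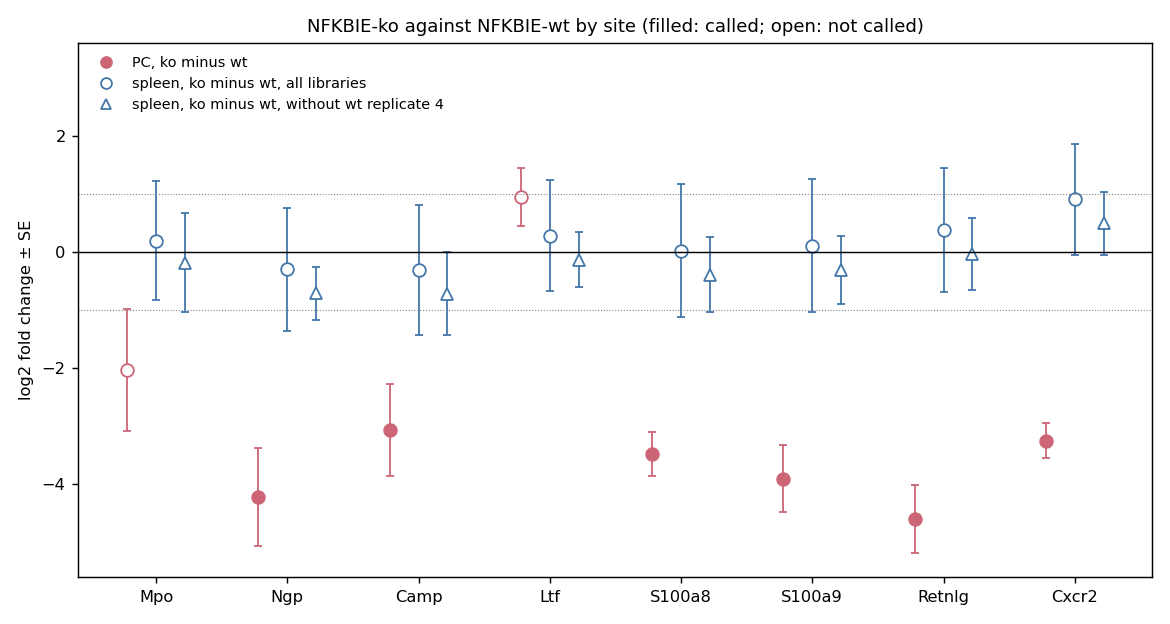
Log2 fold changes of the 8 genes that passed the filter, NFKBIE-ko minus NFKBIE-wt, with their standard errors. Red circles are the PC, blue circles the spleen with all libraries and blue triangles the spleen without the doubted library, and filled symbols are called. In the PC 6 genes lie between -4.60 and -3.07 and Ltf at 0.94, whereas no spleen value is called.

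The ratio between the genes of 1 stage showed how far Ltf and Ngp had parted. The ratio of Ltf to Ngp counts was 0.285, 0.330, 0.282 and 0.397 in the NFKBIE-wt PC. In NFKBIE-wt spleens it was 0.248, 0.322 and 0.297, and in NFKBIE-ko spleens 0.431, 0.390, 0.470 and 0.461. In the NFKBIE-ko PC it was 4.56, 23.5, 7.97 and 186, the last with a 95% counting interval from 63.3 to 905 that covers counting error only, as its denominator is 3 counts. All 11 other libraries of the spleen and the PC that held the genes lay below 0.5, and the 4 NFKBIE-ko PC libraries lay above 4. The spleens of the 2 genotypes did not overlap in this ratio either, with every NFKBIE-ko spleen above every NFKBIE-wt spleen that held the genes. These ratios were formed after the values had been seen and carry no test.

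The balance of late to mature genes lay lower in the PC than in the spleen in NFKBIE-wt, and in NFKBIE-ko it overlapped between the sites. The summed CPM per kilobase of Ngp, Camp and Ltf was 0.204, 0.170 and 0.224 times that of the 4 mature genes in NFKBIE-wt spleens and 0.141, 0.218, 0.117 and 0.175 times in NFKBIE-ko spleens. In the NFKBIE-wt PC it was 0.0748, 0.0846, 0.0468 and 0.0778 times, below every spleen. In the NFKBIE-ko PC it was 0.209, 0.439, 0.177 and 0.564 times, with the lowest inside the range of the NFKBIE-ko spleens. Without Ltf the sites separated in both genotypes. Ngp and Camp alone made 0.083, 0.0571 and 0.0345 times the mature sum in the first 3 NFKBIE-ko PC libraries and 0.0409 to 0.0725 times over the NFKBIE-wt PC libraries, against 0.145 to 0.188 times in the NFKBIE-wt and 0.0949 to 0.177 times in the NFKBIE-ko spleens. The ratio of S100a9 to S100a8 counts ranged from 1.34 to 1.46 over the NFKBIE-wt PC libraries and from 1.19 to 2.18 over the spleens, and was 1.39, 0.677, 1.12 and 0.626 in the NFKBIE-ko PC. In 2 NFKBIE-ko PC libraries S100a8 thus had the higher count, which no other transplant library that held the genes showed.

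**Figure D3:**
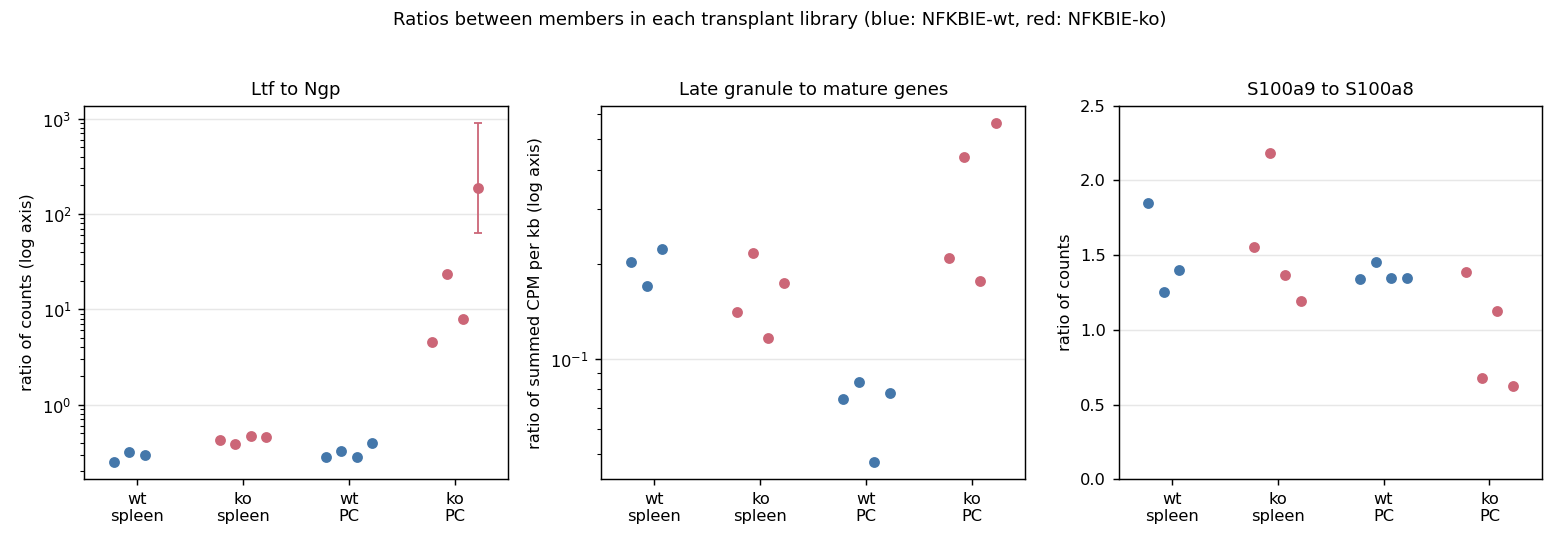
Ratios in each transplant library that held the genes, by group: Ltf to Ngp counts (log axis, with the 95% counting interval for the library with 3 counts of Ngp), late granule to mature genes (summed CPM per kilobase, log axis) and S100a9 to S100a8 counts. Ltf to Ngp lies under 0.5 in 11 libraries and between 4.56 and 186 in the NFKBIE-ko PC, and the late to mature ratio is lowest in the NFKBIE-wt PC.

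In the spleen the same question gave no call. With all libraries, 0 of the 8 genes tested were called, against 1.4% of 12221 genes called higher and 1.59% lower, and 0 of the 8 had an unadjusted p below 0.05, against 23% of all genes. DESeq2 called 0 of them as well. Ngp measured 50.7, 71.9, 14.98 and 0 CPM in NFKBIE-wt spleens and 36.8, 26.2, 32.0 and 16.5 CPM in NFKBIE-ko spleens. S100a8 measured 43.3, 114, 14.9 and 0 CPM against 54.8, 20.5, 74.0 and 25.7 CPM. Cxcr2 measured 3.45, 2.95, 0.780 and 0 CPM against 3.94, 2.48, 5.35 and 1.67 CPM. In each case the genotypes overlapped, and the value of 0 was that of the doubted library. With it the standard errors of the log2 fold changes lay near 1 (Ngp -0.30, SE 1.06, S100a8 0.02, SE 1.14, Cxcr2 0.91, SE 0.96). Without it 0 of the 9 genes then tested were called, against 3.03% higher and 3.33% lower of 12471 genes, and 0 had an unadjusted p below 0.05, against 27.6%. The log2 fold changes were then -0.72 for Ngp (SE 0.45, adjusted p of 0.35 from edgeR), -0.72 for Camp (SE 0.71, adjusted p of 0.56), -0.14 for Ltf (SE 0.47, adjusted p of 0.89), -0.39 for S100a8 (SE 0.64, adjusted p of 0.75), -0.31 for S100a9 (SE 0.59, adjusted p of 0.79), -0.04 for Retnlg (SE 0.62, adjusted p of 0.98) and 0.49 for Cxcr2 (SE 0.54, adjusted p of 0.61). Of the edgeR fits with the filter on these 2 sets of libraries, Ly6g was tested only in the latter, at 0.53 (SE 0.88, adjusted p of 0.76). With errors of this size, a p above the threshold does not show that the genotypes were alike.

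Whether the effect of the genotype differed between the sites was tested as a difference of effects in 1 fit of the 16 spleen and PC samples, as spleen minus PC. With all libraries Retnlg (4.98, SE 1.34, adjusted p of 0.040 from edgeR) and Cxcr2 (4.16, SE 1.05, adjusted p of 0.031 from edgeR) were called, 2 of 8 genes tested, against 0.731% of 13137 genes called higher, and 0 were called lower, against 1.96%. S100a9 (4.02, adjusted p of 0.095), Ngp (3.93, adjusted p of 0.12), S100a8 (3.51, adjusted p of 0.12) and Camp (2.77, adjusted p of 0.31) had differences of like size with p-values above the threshold, and Ltf had one of -0.66 (adjusted p of 0.79). Without the doubted spleen library 5 of 8 were called higher and 0 lower, against 1.29% and 3.12% of 13343 genes, with Ngp at 3.56 (SE 0.98, adjusted p of 0.034 from edgeR), S100a8 at 3.15 (SE 0.83, adjusted p of 0.029), S100a9 at 3.65 (SE 0.90, adjusted p of 0.022), Retnlg at 4.62 (SE 0.95, adjusted p of 0.0085) and Cxcr2 at 3.80 (SE 0.66, adjusted p of 0.0031). The calls with all libraries were not stable, as Retnlg lost its call without any 1 of 13 of the 16 libraries and Cxcr2 without any 1 of 8, with adjusted p-values of at most 0.086.

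Between the sites, the NFKBIE-ko leukemias had lower neutrophil genes in the PC than in the spleen. Of the 8 genes tested 6 were called lower and 0 higher, against 6.46% and 15.6% of 12628 genes. Ngp fell by 4.21 on the log2 scale (SE 0.62, adjusted p of 0.00028 from edgeR), Camp by 3.78 (SE 0.75, adjusted p of 0.0018), Retnlg by 3.47 (SE 0.54, adjusted p of 0.00041), S100a9 by 3.17 (SE 0.53, adjusted p of 0.00057), S100a8 by 2.64 (SE 0.42, adjusted p of 0.00043) and Cxcr2 by 1.85 (SE 0.43, adjusted p of 0.0041). All 6 separated the sites without overlap, against 27.2% of all genes tested. Ltf was 0.53 higher in the PC (SE 0.28, adjusted p of 0.13) and Mpo had a log2 fold change of -2.22 (SE 1.01, adjusted p of 0.084), neither of them called. Without NFKBIE-ko spleen replicate 2, the library with 0 counts of Mpo, Mpo was called lower (-2.62, adjusted p of 0.0062). In the fit of all 22 samples S100a8 (adjusted p of 0.090), S100a9 (adjusted p of 0.070) and Cxcr2 (adjusted p of 0.16) were not called. This comparison shares the 4 NFKBIE-ko PC libraries with the comparison of genotypes in the PC, so that the values of the 2 comparisons are not independent.

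In the NFKBIE-wt leukemias no granule gene among the 10 genes was called between PC and spleen, and Cxcr2 was higher in the PC once the doubted spleen library was left out. With all libraries 0 of 8 genes were called, against 7.92% of 12370 genes called higher and 3.21% lower. DESeq2 called 0 as well. Cxcr2 lay above every spleen in every PC library, as 16.1% of all genes did, with a log2 fold change of 2.31 (SE 0.89, adjusted p of 0.082 from edgeR), and it was the 1 gene of the 8 with an unadjusted p below 0.05, which 41% of all genes had. Without the doubted library Cxcr2 was called higher (1.90, SE 0.44, adjusted p of 0.010 from edgeR) and 0 genes lower, against 10% and 4.41% of 12655 genes. Retnlg (1.09, SE 0.66, adjusted p of 0.24), S100a8 (0.45, SE 0.63, adjusted p of 0.61) and S100a9 (0.43, SE 0.60, adjusted p of 0.62) had positive values, and Ngp (-0.69, SE 0.62, adjusted p of 0.42), Ltf (-0.54, SE 0.62, adjusted p of 0.53) and Camp (-1.43, SE 0.74, adjusted p of 0.16) negative ones, all in that same fit and none called.

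In 5 of the 6 cultures the 10 neutrophil genes summed to between 0.192 and 3.70 CPM, and in the doubted culture library to 207 CPM, within the range of the spleens. In the 3 NFKBIE-ko cultures Ngp, Camp, S100a8, S100a9, Cxcr2 and Elane had 0 counts, Ltf had at most 1 count, Mpo at most 2 and Ly6g at most 3. Retnlg alone exceeded 3 counts, with 7, 2 and 5. NFKBIE-wt replicate 2 had 3 counts of Retnlg and at most 1 of any other gene, and NFKBIE-wt replicate 1 held traces, with 30 counts of Mpo, 19 of S100a8, 14 of S100a9, 13 of Ngp and 8 of Ltf. Against the floor of 3 counts per NFKBIE-ko culture, the NFKBIE-wt PC had at least 926-fold higher S100a9, 666-fold higher S100a8, 240-fold higher Ngp and 75.3-fold higher Cxcr2 in its mean, and even the NFKBIE-ko PC had at least 150-fold higher Ltf and 59.8-fold higher S100a8. None of the 10 genes passed the filter in the comparison of genotypes in vitro, with or without the doubted culture library, so that no genotype effect on them was tested there, where 0.0341% of 11722 genes were called, and 0.0759% of 11865 without that library. Leaving out NFKBIE-wt replicate 2 instead let Mpo pass, and it was called lower in NFKBIE-ko (adjusted p of 0.035 from edgeR), from 30 counts and, in the doubted culture library, 82 counts against 2, 1 and 0. No fold is given for it, since the NFKBIE-ko cultures were all under the floor.

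Other neutrophil genes, from lists written beside the members, did not move as 1 block in the PC. Of the secondary and tertiary granule genes other than Ltf, 11 were tested, 4 were called lower and 2 higher in the NFKBIE-ko PC, with a median log2 fold change of -0.96, against 3.5% and 9.97% of all genes called lower and higher. Those called lower were Olfm4 (-4.02, adjusted p of 0.0041 from edgeR), which marks a subset of neutrophils, Cd177 (-3.47, adjusted p of 0.00035), a neutrophil surface protein, Mmp8 (-3.12, adjusted p of 0.00094), the neutrophil collagenase, and Lcn2 (-2.62, adjusted p of 0.00013), which binds bacterial siderophores. Those called higher were lysozyme, Lyz2 (2.45, adjusted p of 0.00055), at 2055 ± 337 against 371 ± 163 CPM (SD, n = 4), which macrophages also make in quantity, and Pglyrp1 (1.27, adjusted p of 0.0013), at 12.7 against 5.25 CPM. Pglyrp1 was also present in the NFKBIE-ko cultures, at 8.08 CPM, where Lyz2 had at most 5 counts. The gelatinase Mmp9, Hp, Chil3, Slpi and Anxa1 were not called.

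The list of mature neutrophil genes split, with 4 of 16 called lower and 7 higher, against 3.5% and 9.97% of all genes. Stfa2l1 (-3.50, adjusted p of 3.38e-05 from edgeR), a stefin with near-identical copies that may share reads, Il1r2 (-1.77, adjusted p of 2.37e-05), the decoy receptor of interleukin 1, Csf3r (-1.36, adjusted p of 0.00032), the receptor for G-CSF, and Il1b (-1.11, adjusted p of 0.032) were lower. Padi4 (2.00, adjusted p of 4.94e-06), Clec4e (1.58, adjusted p of 0.00015), Fpr1 (1.44, adjusted p of 0.00026), Clec4d (1.28, adjusted p of 0.00048), Mxd1 (1.26, adjusted p of 6.44e-06), Cd300ld (1.26, adjusted p of 0.00031) and Ifitm6 (1.11, adjusted p of 0.0040) were higher, and monocytes and macrophages are known to express several of these as well. Of this list 3 genes passed the filter in the cultures, Hdc, Mxd1 and Padi4. Padi4 stood at 43.8 CPM and Mxd1 at 27.8 CPM in the NFKBIE-ko cultures, where the 10 neutrophil genes summed to at most 0.450 CPM. Of the 4 primary granule genes tested, proteinase 3 (Prtn3, 1.49, adjusted p of 0.023) was called higher and Gstm1, Cst7 and Mgst1 were not called.

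Of 9 regulators of granulopoiesis tested, 1 was called in each direction, of which the higher count is near the 9.97% of all genes and neither is a result about the list. The one called higher was Cebpa (1.06, adjusted p of 0.020 from edgeR), the factor that commits progenitors to the granulocytic and monocytic lines, and the one called lower Csf3r. Cebpe, the factor of the secondary granule stage, did not pass the filter. Gfi1 (-0.73, adjusted p of 0.00055) and Spi1, which encodes PU.1 (0.84, adjusted p of 0.0039), passed the p threshold without the fold. Both were also present in the NFKBIE-ko cultures, Gfi1 at 50.9 CPM and Spi1 at 31.3 CPM. Among the ligands of Cxcr2 and other attractants, 4 were tested and Cxcl2 was called lower, at 4.72 ± 2.82 against 18.7 ± 11.97 CPM (SD, n = 4, log2 fold change -1.99, adjusted p of 0.024), whereas Cxcl1, Pf4 and Ccl3 were not called.

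**Figure D4:**
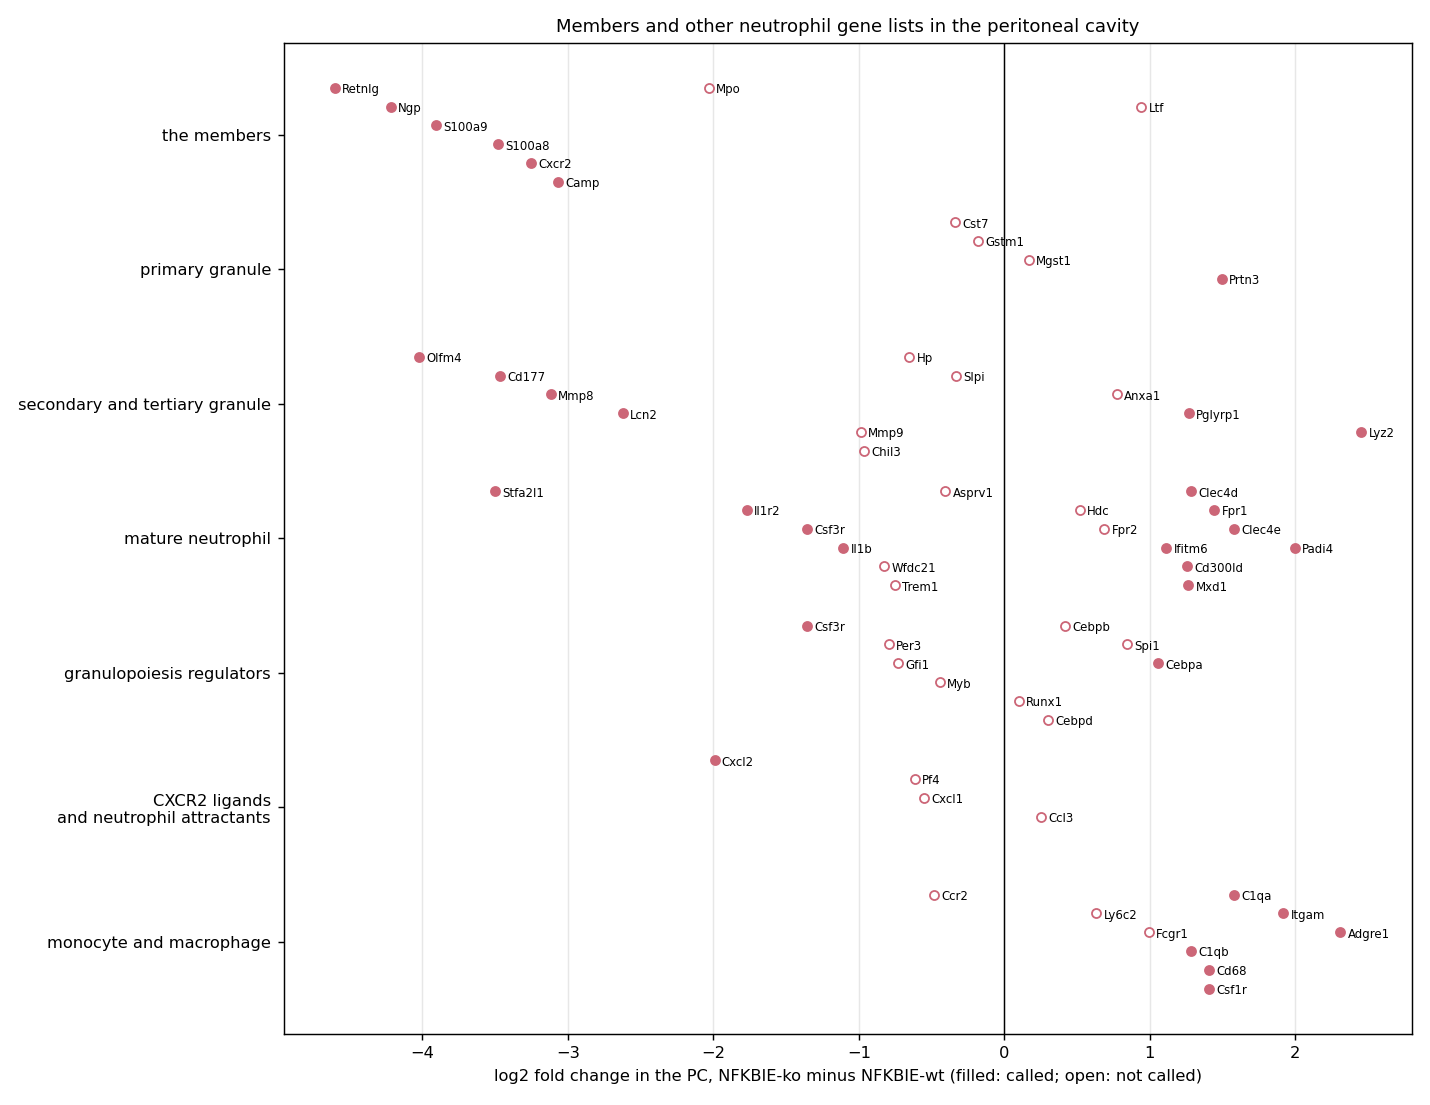
Log2 fold changes in the PC, NFKBIE-ko minus NFKBIE-wt, for the 8 tested members, for the other neutrophil gene lists without the members, and for the monocyte and macrophage markers. Filled circles are called and open circles are not. The 6 members that were called and Olfm4, Cd177, Mmp8, Lcn2 and Stfa2l1 lie on the left, and Lyz2, Padi4 and 6 of 9 macrophage markers on the right.

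In the NFKBIE-ko PC the macrophage markers summed to higher levels, and the 10 neutrophil genes to lower levels, than in the NFKBIE-wt PC. Of Csf1r, Adgre1, Cd68, Ccr2, Ly6c2, C1qa, C1qb, Fcgr1 and Itgam, 6 of 9 were called higher and 0 lower in the NFKBIE-ko PC, against 9.97% and 3.5% of all genes. Their summed level ranged over the PC libraries from 333 to 981 CPM in NFKBIE-wt and from 1814 to 2649 CPM in NFKBIE-ko, with none of the 9 at or under 3 counts in every library of either group. The summed level of the 10 neutrophil genes ranged from 162 to 472 CPM and from 31.4 to 48.0 CPM in the same groups. In the spleen the macrophage markers ranged from 46.5 to 58.4 CPM in NFKBIE-wt without the doubted library, in which they summed to 37.4 CPM, and from 86.1 to 189.6 CPM in NFKBIE-ko. Of these markers 0 of 8 were called with all libraries. Without the doubted library 3 of 9 were called higher in NFKBIE-ko, against 3.03% of all genes. In the cultures the same 9 markers summed to 67.7 to 72.4 CPM in NFKBIE-wt and to 79.8 to 106.9 CPM in NFKBIE-ko. The spleen sums therefore cannot be read as macrophages alone. The parts of macrophages and of leukemia cells in the spleen sums, or in the values of Ltf, Lyz2 or Padi4, were not tested. Erythroid markers summed to 6.24 to 72.8 CPM in the NFKBIE-wt PC and to 4.31 to 74.2 CPM in the NFKBIE-ko PC, and 0 of 5 tested were called between them. Eosinophil, basophil and mast cell markers (7 of 10 in the table) summed to 4.41 to 7.96 CPM and 11.2 to 16.03 CPM, with 1 of 2 tested called higher in the NFKBIE-ko PC. The called gene was Siglecf, at 10.2 CPM in the NFKBIE-ko and 0.905 CPM in the NFKBIE-wt PC. Prg2 went the other way in its mean, 2.98 against 4.69 CPM, and was not called. Ccr3, Mcpt8 and Prss34 had at most 3 counts in every NFKBIE-ko PC library.

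**Figure D5:**
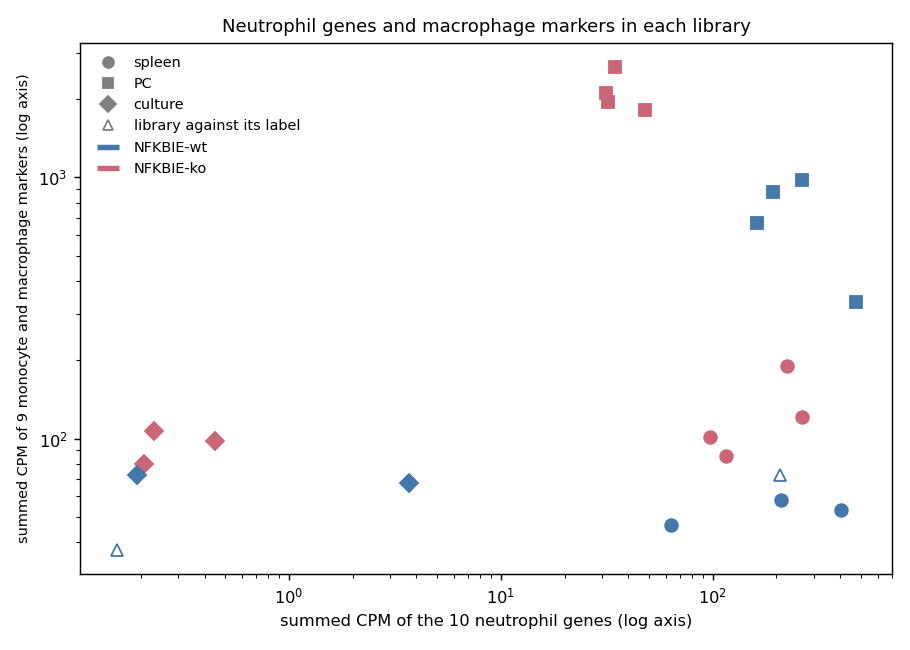
Summed CPM of the 10 neutrophil genes against the summed CPM of 9 monocyte and macrophage markers in each library, both on log axes, by site (circles spleen, squares PC, diamonds culture) and genotype (blue NFKBIE-wt, red NFKBIE-ko), with open triangles for the libraries that went against their labels. The NFKBIE-ko PC lies at 31.4 to 48.0 and 1814 to 2649 CPM, and the NFKBIE-wt PC at 162 to 472 and 333 to 981 CPM.

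Across the sites the lists had other patterns than the members. In NFKBIE-ko leukemias 5 of 12 secondary and tertiary granule genes were called lower in the PC than in the spleen and 4 higher, against 6.46% and 15.6% of all genes. Lcn2 (-1.78, adjusted p of 0.00077 from edgeR), Mmp8 (-2.10, adjusted p of 0.0014), Cd177 (-2.98, adjusted p of 0.00026), Olfm4 (-2.83, adjusted p of 0.013) and Itgb2l, at 0 in every NFKBIE-ko PC library and 1.02 CPM in the spleen, were lower, and Lyz2 (4.65), Anxa1 (2.45), Hp (1.39) and Chil3 (1.32) higher. Of 15 mature neutrophil genes 8 were called higher, from 4.50 for Clec4d down to 1.18 for Hdc with Cd300ld, Fpr1, Ifitm6, Clec4e, Fpr2 and Padi4 between, and 1 lower (Il1b, -1.26). Of 4 primary granule genes 3 were higher (Prtn3, Mgst1, Gstm1), and of 9 regulators 4 (Cebpa, Cebpb, Cebpd, Spi1), with 0 lower in either list. Of the macrophage markers 8 of 9 were called higher in the same comparison.

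In NFKBIE-wt leukemias, with all libraries, 2 of 4 primary granule genes (Prtn3, Cst7), 2 of 12 secondary and tertiary (Lyz2, Hp), 5 of 17 mature (Cd300ld, Clec4d, Fpr1, Clec4e, Fpr2), 4 of 9 regulators (Cebpa, Cebpd, Cebpb, Spi1) and 2 of 4 attractants (Pf4, Cxcl1) were called higher in the PC, and Slpi alone lower, against 7.92% and 3.21% of all genes. Without the doubted library Chil3, Csf3r, Il1r2, Ifitm6, Cxcl5 and Ccl3 were called higher as well. Prtn3 was higher in the PC than in the spleen in both genotypes (3.34, adjusted p of 0.015 in NFKBIE-wt, and 4.97, adjusted p of 8.69e-06 in NFKBIE-ko). The platelet chemokine Pf4 was called higher in the PC in both genotypes, at 12.2 against 0.359 CPM in NFKBIE-wt and 8.06 against 0.370 CPM in NFKBIE-ko. In the spleen, NFKBIE-ko leukemias had lower Slpi (-2.13, adjusted p of 0.027) and Gstm1 (-1.14, adjusted p of 0.039) and higher Ccl3 (2.21, adjusted p of 0.048) among all 5 lists, and no other call. They were 1 of 12 secondary and tertiary granule genes, 1 of 4 primary granule genes and 1 of 3 attractants tested. Of all genes 1.59% were called lower and 1.4% higher. Slpi and Gstm1 were also present in the NFKBIE-ko cultures, where the 10 neutrophil genes summed to at most 0.450 CPM. They stood there at 26.6 and 3.16 CPM, against 9.46 and 2.22 CPM in the NFKBIE-ko spleens. Ccl3 stood at 0.201 CPM in those cultures and 8.96 CPM in those spleens. Without the doubted spleen library Slpi, Gstm1 and Ccl3 stayed called, with edgeR values of -2.43 for Slpi (adjusted p of 0.00045), -1.05 for Gstm1 (adjusted p of 0.032) and 1.87 for Ccl3 (adjusted p of 0.0091) in the spleen. The NFKBIE-wt site difference of Prtn3 was then 2.93 (adjusted p of 0.0018), and Pf4 stood at 12.2 CPM in the PC against 0.479 in the spleen.

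Over the pooled spleen and PC samples, Ngp, Camp and the 4 mature genes varied together, and Ltf and Elane did not follow them. Over the 15 spleen and PC samples that remain without the doubted library, log2(CPM + 1) of S100a8 and Retnlg correlated at 0.98 (Pearson), S100a8 and S100a9 at 0.98, Ngp and S100a9 at 0.95, Ngp and Camp at 0.89, and Camp and Cxcr2, the lowest pair of these 6 genes, at 0.49. Mpo had 0.34 to 0.45 with these 6. Elane had values between -0.16 (Cxcr2) and 0.24 (Ngp) with the 6. Ltf ranged over the other members from -0.40 (Mpo) to 0.18 (Camp), with -0.11 for its granule partner Ngp. With all 16 samples Ltf ranged from -0.02 (Mpo) to 0.46 (S100a8), and its value with Ngp turned to 0.30. Elane then had 0.04 to 0.37 with the 6 genes. The samples share groups and libraries, so that the values describe these samples only. The groups were pooled, and the 6 genes were all called lower in the NFKBIE-ko PC while Ltf was not. The values therefore include that difference between groups, and correlations within a group are not given. Of 13129 genes that were no members, those most like the mean of the mature genes over all 16 samples were Lcn2 (0.98), Mmp8 (0.97), Cd177 (0.96), the membrane metalloproteinase Mmp25 (0.94) and Crispld2 (0.93), and the same 5 led without the doubted library. The late granule mean was closest to Rgs1 (0.95), Cd177 (0.91), Junb (0.91), Nfkbia (0.90) and Fos (0.89), and without the doubted library to Itgb2l (0.93), Rgs1 (0.92), Uchl3 (0.91), Cd177 (0.91) and Junb (0.89). Fos, an immediate early gene, averaged 618 CPM in the NFKBIE-wt PC and 32.1 CPM in the NFKBIE-ko PC. The early granule mean, made of low counts, had Bbof1 (0.84), Gm14122 (0.82), Lpar2 (0.78), Nfil3 (0.77) and Galnt12 (0.77) nearest, and without the doubted library Bbof1 (0.81), Timm29 (0.81), Gpt2 (0.80), Tbl2 (0.80) and Gm14122 (0.79), so that 3 of the 5 names changed.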

How the data were processed

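RNA of 22 samples was sequenced as paired-end mRNA libraries (Illumina TruSeq). The authors quantified transcripts with Salmon 1.8 on GRCm39 with decoys and deposited estimated counts per transcript, of which 69.5% are not whole and each transcript is above 0 in at least 5 samples. The deposited estimated counts of 62147 of 62492 transcripts, matched by identifier to GENCODE mouse vM39, were summed per gene and rounded; the unmatched share was 0.619% of counts. Groups were taken from the sample titles, since the descriptions of NFKBIE-ko samples name them NFKBIE-wt. Each comparison was fitted on its own groups with edgeR 4.0.16 in R 4.3.3 (filterByExpr, minimum count 10, TMM, quasi-likelihood test, Benjamini-Hochberg adjustment over all genes tested), and the difference of effects on the 16 transplant samples. The scripts were tested on simulated counts. Correlations used log2(CPM + 1). Alternatives were DESeq2 1.42.0 and its size factors, other filters, all samples in 1 fit, a replicate block, protein-coding transcripts alone, single transcripts and leaving out each library. Fits without the doubted libraries were added after the data had been seen. The 10 genes, the lists and the tests were chosen with earlier results of these data known, and these genes are named whatever their values; genes of the lists are named where called between 2 groups of transplant samples, with some that were not called, and by likeness the 5 nearest per stage. Total counts of 24036763 to 26581304 limit precision to the counting error of a few counts for Mpo, Elane and Ly6g. Residuals of same-numbered samples correlated at -0.32 to 0.218, with no comparison above 0.1 in every pair, so the numbers were not taken to pair samples. Some genes of the cell type marker lists are not reported here and were left out of their counts and sums.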

Additional observations from a re-analysis of the deposited data

Results flagged for a closer look

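Among 40 groups of 4 libraries (10 genes in 4 groups), 2 held a library far from the other 3, where chance alone gives such a library in about 1 of 20 groups. Camp in NFKBIE-wt PC replicate 3 (0.702 CPM) lay 0.868 of the group's range on the log2(CPM + 1) scale from its nearest neighbour. Ly6g in NFKBIE-ko PC replicate 3 lay the whole range (1) from the others, at 2 counts (0.085 CPM) against 0. The effect of the genotype differed between spleen and PC by 4.98 on the log2 scale for Retnlg (adjusted p of 0.040, edgeR) and by 4.16 for Cxcr2 (adjusted p of 0.031, edgeR), with all 16 libraries. Without the doubted spleen library the differences were 4.62 and 3.80.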

How the results depend on the processing

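In the PC, the 6 calls were kept under every alternative that tested the gene but 2: the fit of all 22 samples called 2 members lower, and single transcripts lost Camp. Under the stricter filter, which asks for 1 CPM in every library of either group, Camp was not tested and so had no call. With a replicate block 1 member was called higher in the PC (Ltf, 1.14, adjusted p of 0.020 from edgeR). In the spleen no member was called under any alternative, while the genes called over the whole table numbered 365, 723 with DESeq2, 661 with all 22 samples, 89 with the replicate block, 793 without the doubted library and 1031 with DESeq2 without it. Signs turned there for S100a8 with protein-coding transcripts alone (-0.0043), for Ngp (0.73) and Camp (1.11) with the block, and without the doubted library for Mpo (-0.19), Ltf (-0.14), S100a8 (-0.39), S100a9 (-0.31) and Retnlg (-0.043), for which DESeq2 gave -0.19, -0.13, -0.39, -0.31 and -0.041. In vitro 4 genes were called, 156 with DESeq2, 189 with all 22 samples, 0 with the block, 9 without the doubted library and 143 with DESeq2 without it. Between the sites in NFKBIE-wt, the block turned Mpo (-0.10), Ngp (0.39) and Ltf (0.42), and without the doubted library 1 member was called higher (1 with DESeq2), with Mpo at -0.36 (-0.37 with DESeq2). For the difference of effects, 2 members were called, 1 without a filter, 0 with all 22 samples, 1 with the block, and 5 without the doubted library (5 with DESeq2); genes numbered 354, 625 with DESeq2, 184 with the block, 588 without the doubted library and 817 with DESeq2 without it. As CPM in place of CPM per kilobase, the late to mature ratio averaged 0.455 in NFKBIE-wt spleens, 0.377 in NFKBIE-ko spleens, 0.160 in the NFKBIE-wt PC and 1.46 in the NFKBIE-ko PC. Beyond the settings' own construction, the cause of these changes was not tested.

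Leaving out 1 library at a time gave 116 to 793 genes called in the spleen, 0 to 391 in vitro with 0 to 1 members lower, 0 to 1 members higher in the PC, 0 to 1 between the sites in NFKBIE-wt, and 212 to 588 genes with 0 to 5 members for the difference of effects. Log2 fold changes that crossed 0 ranged in the spleen from -0.27 to 0.61 (Mpo), -0.72 to 0.35 (Ngp), -0.72 to 1.15 (Camp), -0.14 to 1.10 (Ltf), -0.39 to 1.17 (S100a8), -0.31 to 0.96 (S100a9) and -0.043 to 1.46 (Retnlg), between the sites in NFKBIE-wt from -0.61 to 0.43 (Mpo), -0.87 to 0.37 (Ngp), -1.43 to 0.45 (Camp) and -0.74 to 0.69 (Ltf), and for the difference of effects from -1.22 to 0.17 (Ltf). Samples correlated best with their own replicate number in 0 of 8, 0 of 8, 3 of 6, 2 of 8 and 4 of 8 cases over the 5 comparisons of 2 groups.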
